A study of Mus musculus with 4 samples.

Results

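The cytosolic ribosomal protein genes are described here across the neurons, glia and vascular cells of mouse BNST (bed nucleus of stria terminalis), part of the extended amygdala in the forebrain. Members were chosen by name alone: symbols that begin with Rpl or Rps followed by a digit, with Rplp0, Rplp1, Rplp2 and Rpsa, present in all 4 count tables, without the Rps6k kinases and without names ending in -ps. This gave 84 genes of 20136. Of these, 43 encode proteins of the large (60S) subunit and 31 encode proteins of the small (40S) subunit. Another 3 form the P stalk of the large subunit, and 7 are paralogs or genes that only share the naming pattern. Among those 7, Rps3a3 and Rps4y2 are annotated as pseudogenes in GENCODE vM21. A further 4 names matched the pattern but were missing from at least 1 table (Rpl10l, Rpl39l, Rpl3l and Rps3a2, with 1 to 4 molecules each).

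The cytosolic ribosome makes nearly all proteins of a cell from nuclear messages, and its proteins are produced in matched amounts in most cells. Messages of these genes begin with a tract of pyrimidines that ties their translation to growth signals. Several members have a close paralog that can take their place in the ribosome, such as Rpl22l1 for Rpl22 and Rps27l for Rps27, and the use of such paralogs differs between tissues. In neurons, ribosomes supply both the cell body and local synthesis in dendrites and axons.

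The tissue came from male C57BL/6J wildtype mice, with 6 mice pooled in each of 4 libraries, so that 24 mice contributed to 1 group with no treatment. The study profiled BNST cells with Drop-seq, which captures the RNA of single cells on barcoded beads and counts molecules by unique molecular identifiers (UMIs), and its title concerns prepronociceptin neurons and arousal. Since each library pools mice, its spread mixes animals with batch, and p-values measure only the variation among these 4 pools. Every test contrasts classes of cells from shared libraries, on UMIs summed per class and library.

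The 4 tables held 10200 barcodes and 14018026 UMIs, and 4181 cells with 12037744 UMIs were kept. Of all barcodes, 11 sequences occurred in more than 1 library, and none of those was among the cells that passed the gene and mitochondrial filters. Marker genes placed 4016 cells in a class: 2499 neurons, 922 mature oligodendrocytes, 396 astrocytes, 120 oligodendrocyte precursors, 68 vascular cells, 9 microglia and 2 fibroblasts, with no ependymal cell. Each of the 5 larger classes had UMIs of every one of its own markers, as the gate favours. The neuron marker list summed to 11212 CPM (counts per 1000000 UMIs) in neurons and to 193 to 603 CPM in the other 4 larger classes. Microglia and fibroblasts had fewer than 10 cells in every library and entered no test, and vascular cells entered with libraries 1 to 3, since library 4 held 9 of them.

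Among the 5 classes with enough cells, ribosomal protein messages took the largest share of UMIs in vascular cells and neurons, a smaller share in the oligodendrocyte lineage and the smallest in astrocytes. In neurons the 84 members summed to 1.47%, 1.15%, 1.04% and 1.05% of all UMIs in libraries 1 to 4, a mean of 1.18% ± 0.20 (SD, n = 4). In vascular cells the sum was 1.67%, 1.56% and 1.18% in libraries 1 to 3 (1.47% ± 0.26, SD, n = 3), above the neurons of the same library in each of the 3, with ranges that overlapped. Mature oligodendrocytes lay below neurons in each library, at 1.01%, 0.81%, 0.81% and 0.77% (0.85% ± 0.11, SD, n = 4). Oligodendrocyte precursors followed at 0.79%, 0.71%, 0.72% and 0.61% (0.71% ± 0.07, SD, n = 4), below the mature cells in each of the 4 libraries. Astrocytes gave 0.49%, 0.40%, 0.36% and 0.46% (0.43% ± 0.06, SD, n = 4), and no astrocyte library reached the lowest value of any other class. The order from astrocytes to precursors to mature oligodendrocytes to neurons was the same in all 4 libraries. The 9 microglia pooled over libraries gave 2.25% of 9289 UMIs, with no replicate value.

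Other quantities moved with the classes. The median depth of a cell was 3230 UMIs in neurons, 1386 in mature oligodendrocytes, 995.5 in precursors, 814 in astrocytes and 812 in vascular cells, so the classes with the highest and lowest summed level among glia and vascular cells had nearly the same depth. With every cell thinned to 1000 UMIs the summed level was 1.17% in neurons, 0.86% in mature oligodendrocytes, 0.74% in precursors and 0.42% in astrocytes (3 libraries for the last 2). Malat1, a nuclear noncoding RNA, took 1.08% ± 0.30 of UMIs in neurons and 10.1% ± 0.27 in astrocytes (SD, n = 4), with 4.68% to 5.88% in the other classes. Without Malat1 and mitochondrial genes in the total, the summed level was 1.24% in neurons, 0.95% in mature oligodendrocytes, 0.77% in precursors, 0.50% in astrocytes and 1.66% in vascular cells, in the same order. In barcodes of at most 200 UMIs, too shallow to be kept as cells, the members made up 0.91% to 1.19% of UMIs across the libraries. That was above the astrocytes, precursors and mature oligodendrocytes and below the neurons of the same library. The part of free RNA in the class values was not tested.

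**Figure D1:**
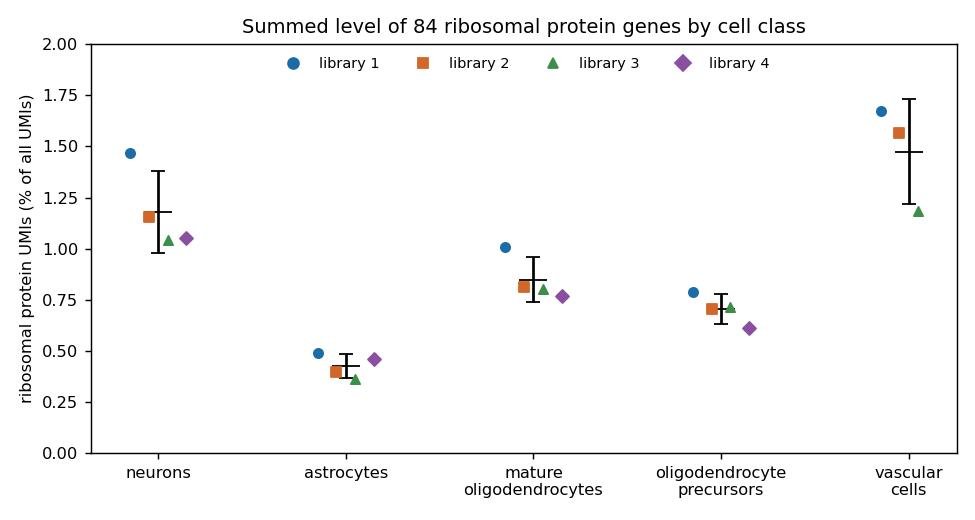
Summed level of the 84 ribosomal protein genes, as a percentage of all UMIs, in 5 cell classes. Each point is 1 library, and the bar and whiskers give the mean and SD over libraries (3 for vascular cells). Astrocytes lie lowest in every library, and library 1 is the highest point of each class.

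The 250 bases before the RefSeq transcription start are shown for Rpl22l1, Rpl22, Rps27l, Rplp0 and Rpl27a. These 5 members are named in the comparisons below and were picked with their values known. Other named members, among them Rps9 and Rps4y2, are not shown. Sequences are from RefSeq on GRCm38.p6, 5′ to 3′ on the strand of the gene, which is the plus strand for all 5. Capitals mark matches to CCGGAAG, the core bound by ETS factors, to AAGATGG, the core bound by YY1, or to TATAAA, the TATA box, each searched on both strands. Where the table held more than 1 start, the one nearest to a protein-coding start in GENCODE vM21 was taken. For Rpl22 it still lay 127 bases before that start, and for the other 4 genes the distance was 0 to 48 bases. The stretches of Rpl22l1 and Rpl27a run past the GENCODE gene starts at 28805436 and 109519147, so their last bases lie within the annotated gene.
Rpl22l1, chr3:28805258-28805507: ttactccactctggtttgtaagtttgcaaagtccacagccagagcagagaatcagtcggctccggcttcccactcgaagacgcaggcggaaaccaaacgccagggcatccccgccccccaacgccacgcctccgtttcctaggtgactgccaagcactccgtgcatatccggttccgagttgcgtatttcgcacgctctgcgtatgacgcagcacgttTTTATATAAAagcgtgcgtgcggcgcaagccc
Rpl22, chr4:152325476-152325725: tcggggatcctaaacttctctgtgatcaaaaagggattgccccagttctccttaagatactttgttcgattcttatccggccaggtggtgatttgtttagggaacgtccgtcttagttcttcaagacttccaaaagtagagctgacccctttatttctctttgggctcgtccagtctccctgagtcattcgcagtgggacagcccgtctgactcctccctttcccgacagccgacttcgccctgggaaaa
Rps27l, chr9:66945836-66946085: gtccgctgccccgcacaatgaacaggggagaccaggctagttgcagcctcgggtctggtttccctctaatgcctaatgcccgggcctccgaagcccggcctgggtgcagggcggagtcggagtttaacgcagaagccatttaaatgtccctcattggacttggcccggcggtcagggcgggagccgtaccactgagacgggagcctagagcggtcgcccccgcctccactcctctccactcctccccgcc
Rplp0, chr5:115559217-115559466: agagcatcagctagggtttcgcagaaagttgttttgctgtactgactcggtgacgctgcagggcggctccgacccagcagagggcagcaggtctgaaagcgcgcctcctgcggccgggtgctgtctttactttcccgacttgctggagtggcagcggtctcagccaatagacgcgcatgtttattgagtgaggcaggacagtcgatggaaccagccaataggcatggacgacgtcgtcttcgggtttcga
Rpl27a, chr7:109518945-109519194: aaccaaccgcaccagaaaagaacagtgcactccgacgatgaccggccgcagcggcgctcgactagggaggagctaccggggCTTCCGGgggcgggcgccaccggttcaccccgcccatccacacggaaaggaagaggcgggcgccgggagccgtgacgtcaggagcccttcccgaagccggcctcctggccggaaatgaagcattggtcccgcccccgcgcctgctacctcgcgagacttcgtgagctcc

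The Rpl22l1 stretch holds TTTATA from 32 bases before the RefSeq start and TATAAA from 28 bases before it. The matches overlap, and both lie within the GENCODE gene. The Rpl27a stretch holds CTTCCGG, the reverse complement of the ETS core, from 169 bases before the start. The other 3 stretches hold none of the 3 motifs, although the window at the other RefSeq start of Rpl22, not shown, holds CCATCTT and TTTATA, the reverse complements of AAGATGG and TATAAA. Past the start, Rps27l has CCGGAAG from base 10 and Rplp0 has TATAAA from base 18. Of the 84 members, 62 matched the RefSeq promoter table by symbol. In windows from 250 bases before to 50 bases after the start, CCGGAAG occurred in 25 of the 62 members (40.3%) and in 2683 of 27025 genes in all (9.93%). AAGATGG occurred in 10 members (16.1%) against 7.28% of all genes, and TATAAA in 7 members (11.3%) against 15.7%. These are matches of letters and not measured binding.

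Per-gene tests used edgeR's quasi-likelihood test on the summed UMIs with the library as a block, and a member was called when its p, adjusted by Benjamini-Hochberg over all genes tested, was under 0.05. In the fit over classes 39 of the 84 members passed the filter on low counts, 17 of the 60S, 16 of the 40S, all 3 of the P stalk and 3 of the paralogs and like-named genes, among 4748 genes. The filter depends on the sums of the smaller classes, so counts over those that passed are descriptions. Fold changes are given as log2 values with their standard error (SE).

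Neurons had higher levels than astrocytes for almost every tested ribosomal protein gene. Of the 39 members, 37 were called higher in neurons and none lower, where 38.9% of all genes tested were called higher and 29.2% lower (68.2% in either direction). The median log2 difference was 1.38 over the members and 0.32 over all genes. All 16 tested 40S genes and all 3 P stalk genes were called higher, and 16 of 17 60S genes. The 2 members not called were Rpl22, at -0.12 (adjusted p = 0.695), and Rps27l, at -0.38 (adjusted p = 0.430), and the sign of the Rpl22 difference turned positive when total UMIs alone scaled the sums (0.02).

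Rpl22l1, the paralog of the 60S protein Rpl22, had 276, 171, 179 and 161 CPM in the neurons of libraries 1 to 4 and 36.2, 13.1, 9.75 and 27.2 CPM in astrocytes. The groups did not overlap, and the log2 difference was 3.05 (SE 0.39, adjusted p = 2.2e-14). Rpl27a, a 60S protein, had 166, 147, 108 and 91.1 CPM in neurons against 9.04, 26.2, 29.3 and 27.2 CPM in astrocytes, a log2 difference of 2.4 (SE 0.43, adjusted p = 5.53e-08). Every neuron library lay above every astrocyte library for this gene too. Rpl38, a 60S protein known for its role in the translation of Hox messages during patterning, had 129, 113, 43.2 and 39.9 CPM in neurons and 18.1, 26.3, 0 and 13.6 CPM in astrocytes, a difference of 2.45 (SE 0.53, adjusted p = 1.18e-05). Its neuron level was lower in libraries 3 and 4 than in libraries 1 and 2, and the groups still did not overlap.

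The gene listed as Rps4y2 also stood high in neurons. This symbol is a RefSeq synonym of Rps4l, annotated in GENCODE vM21 as a transcribed processed pseudogene on GRCm38 at chr6:148354656-148355598, so its UMIs are not evidence of a protein. It had 126, 129, 95.7 and 125 CPM in neurons and 9.04, 26.2, 0 and 13.6 CPM in astrocytes, a difference of 3.25 (SE 0.52, adjusted p = 1.42e-09). Against mature oligodendrocytes, at 22.3, 30.2, 29.4 and 17.2 CPM, the difference was 2.03 (SE 0.24, adjusted p = 2.56e-17). Neurons lay above both glial classes in every library.

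Between neurons and mature oligodendrocytes more members were called higher in neurons than lower, and their median difference was close to that of all genes. Of the 39 members, 21 were called higher in neurons and 4 lower, where 45.6% and 30.1% of all genes were called in those directions, so the share called among members (25 of 39) was below that of all genes (75.7%). The median was 0.33 over members and 0.32 over all genes, and 31 of the 39 members had a positive difference, beside 59.5% of all genes. Among 60S genes 11 were higher and 1 lower, among 40S genes 6 higher and 1 lower, and in the P stalk 2 higher and 1 lower. Without library 2 the count fell to 11 higher and 5 lower.

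Rpl22l1 was the member with the largest difference from mature oligodendrocytes. Its level there was 63.3, 27.2, 22.1 and 20.7 CPM, all below the lowest neuron library, and the log2 difference was 2.30 (SE 0.20, adjusted p = 4.47e-30). Rpl27a followed, at 33.5, 33.3, 19.6 and 17.2 CPM in mature oligodendrocytes and a difference of 2.09 (SE 0.23, adjusted p = 2.98e-19). Rpl24, which lies at the interface of the subunits, had 124, 135, 130 and 115 CPM in neurons and 48.4, 45.4, 68.7 and 37.9 CPM in mature oligodendrocytes, a difference of 1.09 (SE 0.19, adjusted p = 3.47e-08). Rpl37a, a small 60S protein, had 188, 126, 126 and 139 CPM in neurons and 83.8, 45.4, 46.6 and 62.0 CPM in mature oligodendrocytes, a difference of 1.06 (SE 0.18, adjusted p = 1.06e-08). For these 4 genes no oligodendrocyte library reached a neuron library.

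The 4 members lower in neurons than in mature oligodendrocytes were Rps27l, Rplp0, Rpl22 and Rps9. Rps27l, the p53-responsive paralog of the 40S protein Rps27, had 46.4, 43.2, 36.5 and 33.2 CPM in neurons and 114, 60.5, 68.7 and 117 CPM in mature oligodendrocytes. The groups did not overlap, and the difference was -1.38 (SE 0.20, adjusted p = 3.43e-11). Rpl22 had 152, 108, 87.7 and 89.7 CPM in neurons and 257, 212, 172 and 107 CPM in mature oligodendrocytes, a difference of -0.99 (SE 0.14, adjusted p = 9.35e-12). The groups overlapped, although neurons were lower within each library. Rps9, a 40S protein at the entry of the message channel, had 444, 346, 322 and 421 CPM in neurons and 536, 438, 417 and 493 CPM in mature oligodendrocytes, a difference of -0.52 (SE 0.12, adjusted p = 1.49e-05). These groups overlapped as well, with neurons lower in each library.

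The P stalk recruits elongation factors to the ribosome, with Rplp0 as its base and Rplp1 and Rplp2 as the dimers bound to it. Its members did not move alike between neurons and mature oligodendrocytes. Rplp0 had 158, 139, 100 and 120 CPM in neurons and 350, 296, 233 and 221 CPM in mature oligodendrocytes, a difference of -1.31 (SE 0.13, adjusted p = 6.14e-24) with no overlap. Rplp1 had 778, 540, 703.6 and 465 CPM in neurons and 422, 302, 414 and 241 CPM in mature oligodendrocytes, a difference of 0.63 (SE 0.12, adjusted p = 4.86e-07), again with no overlap. Rplp2 had 464, 325, 328 and 321 CPM in neurons and 300, 187, 284 and 210 CPM in mature oligodendrocytes, with no overlap, where the difference of 0.33 (SE 0.12, adjusted p = 0.0117) was lost with DESeq2 size factors (adjusted p = 0.108). As a share of the UMIs of Rplp0 and Rplp1 together, Rplp0 made up 17.6% ± 3.81 in neurons and 44.6% ± 6.02 in mature oligodendrocytes (SD, n = 4).

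**Figure D2:**
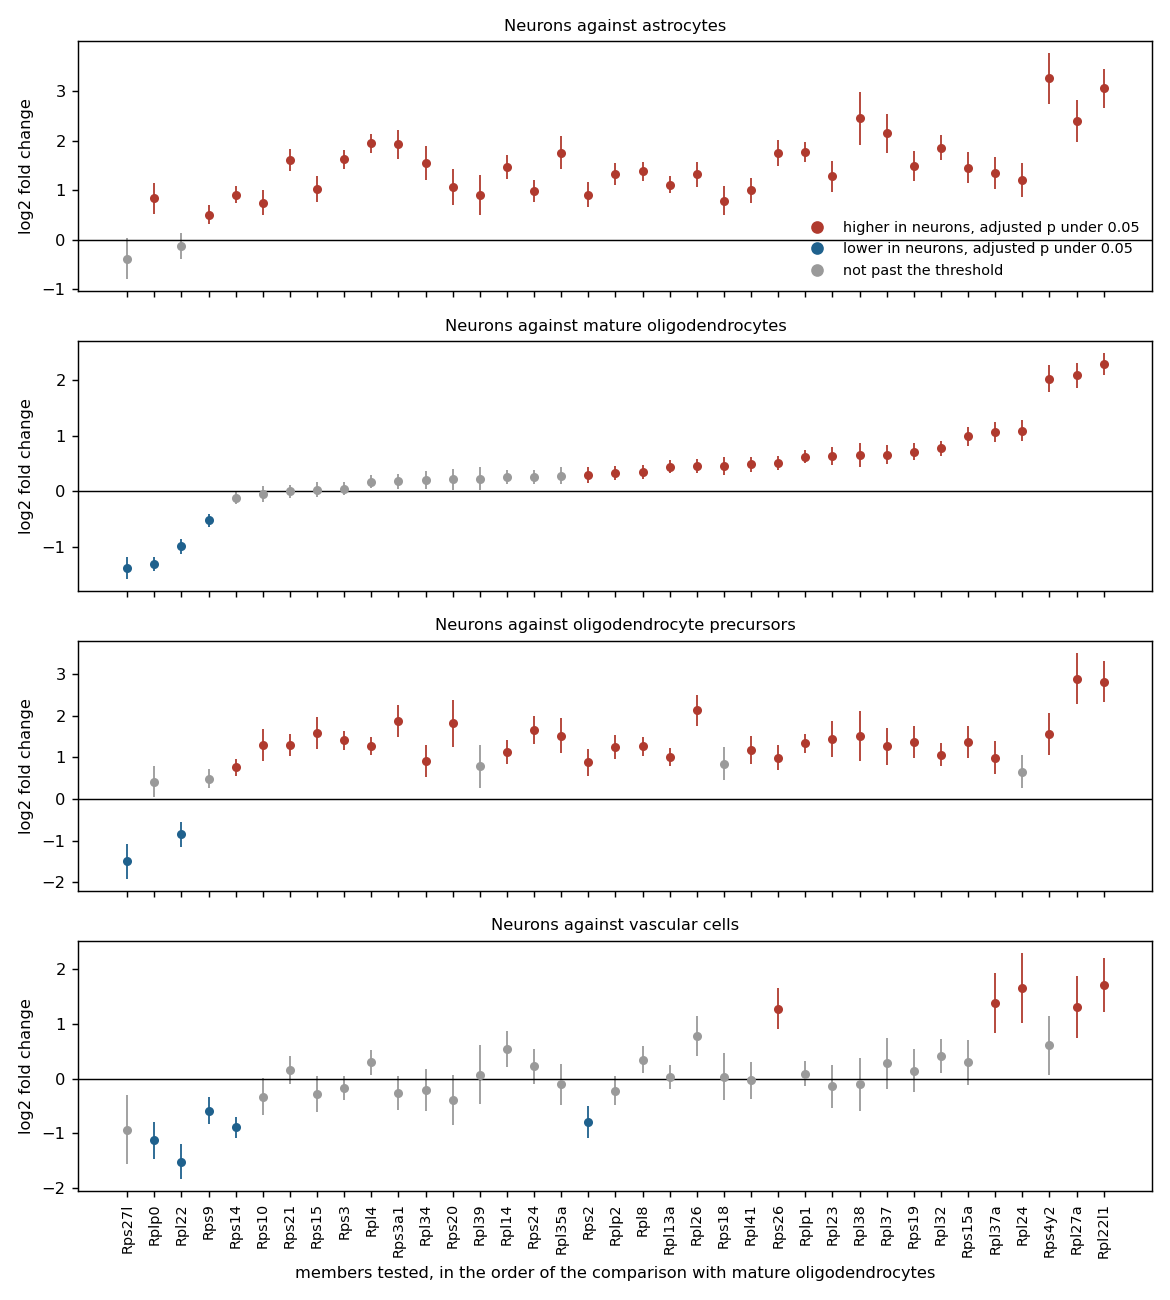
Log2 fold change with its standard error for 37 of the 39 tested members in neurons against 4 other classes, with members in the order of the comparison with mature oligodendrocytes. Red and blue points were called higher and lower in neurons. Most points lie above 0 against astrocytes and precursors, and by that order Rps27l, Rplp0 and Rpl22 stand at one end and Rps4y2, Rpl27a and Rpl22l1 at the other.

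Against oligodendrocyte precursors, the dividing cells that give rise to oligodendrocytes, neurons again had higher levels of most tested members. Of the 39, 32 were called higher and 2 lower, beside 30.8% and 20.3% of all genes (51.1% in either direction), with a median of 1.26 over members and 0.32 over all genes. The sums of precursors were small, 22825 to 40589 UMIs per library. Rpl22l1 had 24.6, 43.8, 76.2 and 0 CPM in precursors, from 5 UMIs in all, and the difference was 2.82 (SE 0.49, adjusted p = 7.18e-08). Every neuron library was above these values. Rpl26, a 60S protein, had 349, 241, 269 and 227 CPM in neurons and 98.6, 43.8, 102 and 54.9 CPM in precursors, a difference of 2.13 (SE 0.37, adjusted p = 7.47e-08) with no overlap. Rps3a1, a 40S protein, had 308, 193, 213 and 184 CPM in neurons and 148, 43.8, 76.2 and 27.5 CPM in precursors, a difference of 1.87 (SE 0.38, adjusted p = 5.39e-06). Rpl27a (2.89, SE 0.62) rested on 3 UMIs in precursors, all in library 1, and Rps20 (1.81, SE 0.57) on 5. In CPM without TMM scaling, Rps20 was lower in neurons than in precursors in library 4, with a log2(CPM + 1) difference of -0.15.

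The 2 members lower in neurons than in precursors were Rps27l and Rpl22, both also among the 4 that were lower than in mature oligodendrocytes. Rps27l had 148, 87.6, 203 and 110 CPM in precursors, above every neuron library, and the difference was -1.50 (SE 0.43, adjusted p = 0.00146). Rpl22 had 296, 263, 279 and 165 CPM in precursors, also above every neuron library, and the difference was -0.85 (SE 0.30, adjusted p = 0.012). Rplp0 did not pass (0.41, adjusted p = 0.365), with 24.6, 131, 178 and 165 CPM in precursors.

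Vascular cells had a higher summed level than neurons in each of the 3 shared libraries, and the members called differed in direction. Of the 39, 5 were called higher and 5 lower in neurons, beside 33.6% and 17.5% of all genes (51.2% in either direction), with a median of 0.04 over members and 0.68 over all genes. Scaled by DESeq2 size factors the split was 3 higher and 5 lower, by total UMIs alone 2 higher and 5 lower, and without library 1 only 1 member was called in each direction. With no filter on low counts all 84 members were tested, and 20 were called higher and 1 lower, so the balance of directions changed with the filter. Rpl22 had 579, 323 and 309 CPM in vascular cells of libraries 1 to 3, from 37 UMIs, and the difference was -1.52 (SE 0.32, adjusted p = 8.51e-06). Rps14, a 40S protein, had 770, 647 and 533 CPM in the neurons of those libraries and 1715, 1454 and 1338 CPM in vascular cells, a difference of -0.89 (SE 0.20, adjusted p = 2.23e-05). For both genes every vascular library was above every neuron library. Rplp0 (-1.13, SE 0.33), Rps2 (-0.79, SE 0.29) and Rps9 (-0.58, SE 0.25) were the other members called lower in neurons, Rps9 in 2 of 3 libraries. Rpl22l1 (1.71, SE 0.50), Rpl24 (1.66, SE 0.65), Rpl37a (1.38, SE 0.55), Rpl27a (1.31, SE 0.56) and Rps26 (1.28, SE 0.38), a protein at the exit of the message channel, were called higher. Each of these 5 had 4 to 14 UMIs in vascular cells and 0 in at least 1 library.

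Within the oligodendrocyte lineage the precursors had the lower levels. Of the 39 members, 19 were called lower in precursors than in mature oligodendrocytes and none higher, beside 20.5% and 22.7% of all genes (43.2% in either direction), with a median of -0.80 over members and 0.03 over all genes. By role, 10 of 16 tested 40S genes, 6 of 17 60S genes and all 3 P stalk genes were lower. Scaled by total UMIs alone, which moved the median of all genes to 0.56, 8 were lower and none higher. Rplp0 differed most (-1.72, SE 0.33, adjusted p = 1.19e-06), and its values in the classes are given above. Rps3a1 had 236, 157, 159 and 128 CPM in mature oligodendrocytes, above the precursors of the same library with overlapping groups (-1.69, SE 0.41, adjusted p = 0.000133). Rps24, a 40S protein, had 240, 193, 211 and 179 CPM in mature oligodendrocytes and 49.3, 175, 178 and 82.4 CPM in precursors (-1.41, SE 0.36, adjusted p = 0.00029), and those groups did not overlap. Rpl26 (-1.67, SE 0.41) and Rps15 (-1.56, SE 0.40) were the next named, on 11 and 12 UMIs in precursors.

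To separate the level of single members from that of the whole group, the same test was run with the summed UMIs of the 84 members as library size. Most differences against astrocytes and precursors then no longer passed: 7 members were called against astrocytes, 16 against mature oligodendrocytes, 6 against precursors and 10 against vascular cells. Relative to the group, Rpl22l1 was called higher and Rpl22 and Rps9 lower in neurons in all 4 comparisons, and Rps27l lower in 3. In the main test all 16 tested 40S genes, Rps9 among them, were called higher in neurons than in astrocytes. No 40S gene was called lower there than in precursors. For Rpl22l1 the differences relative to the group ran from 1.70 (SE 0.51, vascular cells) to 2.06 (SE 0.23, mature oligodendrocytes). For Rpl22 they ran from -1.94 (SE 0.33, precursors) to -1.24 (SE 0.17, mature oligodendrocytes). Rps27l differed by -1.69 (SE 0.47) from astrocytes, -1.63 (SE 0.22) from mature oligodendrocytes and -2.58 (SE 0.47) from precursors. Because the 4 comparisons share the neuron sums, they are not independent of each other.

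The balance of the paralogs Rpl22 and Rpl22l1 therefore separated neurons from the other classes. Of the UMIs of the pair, Rpl22l1 made up 64.3% ± 2.36 in neurons, with 61.3% in the lowest and 67.1% in the highest library (n = 4). It made up 16.03% ± 6.71 in astrocytes, 14.7% ± 4.08 in mature oligodendrocytes, 10.9% ± 9.15 in precursors (SD, n = 4) and 13.5% ± 13.6 in vascular cells (SD, n = 3). The highest library outside neurons, in vascular cells, reached 27.3%, so the ranges did not overlap. These shares rest on 2073 and 1152 UMIs of Rpl22l1 and Rpl22 in neurons, 58 and 309 in mature oligodendrocytes, 8 and 40 in astrocytes, 5 and 35 in precursors, and 7 and 37 in vascular cells. The pair of Rps27l and Rps27 showed no such separation. As means over libraries, Rps27l made up 95.8% of it in neurons, 95.0% in astrocytes, 98.9% in mature oligodendrocytes and 97.2% in precursors. Rps27 had 15 UMIs in neurons and at most 2 in each other class. Rpl36al made up 77.9% of its pair with Rpl36a in neurons and 90.8% in mature oligodendrocytes, with 6 UMIs of Rpl36a in the latter. Rpl22l1 lies on GRCm38 at chr3:28805436-28807424 and Rpl22 at chr4:152325742-152334071, both on the plus strand. Of the 50-base windows in the last 300 bases of their transcripts, 61.2% for Rpl22l1 and 11.9% for Rpl22 also occur in another annotated transcript, in 3 and 4 pseudogenes, so reads can be shared with those copies.

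**Figure D3:**
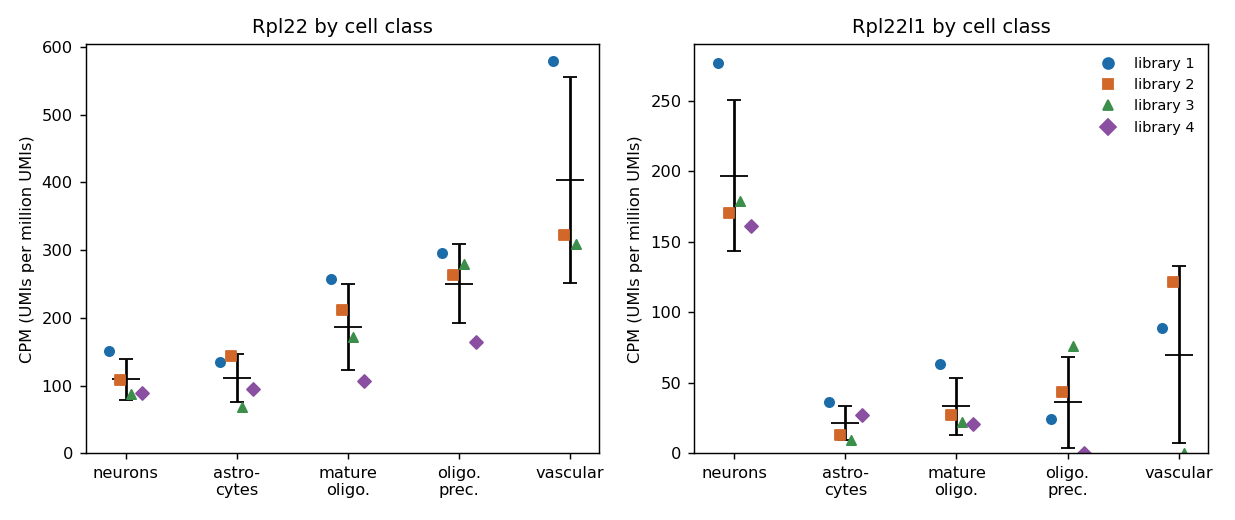
Level of Rpl22 (left) and of its paralog Rpl22l1 (right) in CPM of UMIs by cell class. Points are libraries, and bars and whiskers give the mean and SD (4 libraries, 3 for vascular cells). Neurons have the lowest mean of Rpl22, close to astrocytes, and their lowest Rpl22l1 library, at 161 CPM, lies above all libraries of the other classes.

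The remaining paralogs and like-named genes had fewer UMIs, and most of them in neurons. Neurons also held 9681089 of the 12037744 UMIs of all kept cells, so raw counts do not compare the classes. Rpl36al, the autosomal paralog of Rpl36a, had a level of 53.6 CPM ± 14.0 in neurons, 38.1 ± 11.9 in mature oligodendrocytes and 14.9 ± 17.8 in astrocytes (SD, n = 4), with 1 UMI in precursors and none in vascular cells. Rpl7l1 had 72.8 CPM ± 9.80 in neurons, 75.9 ± 27.0 in precursors, 41.5 ± 27.5 in astrocytes and 37.4 ± 10.8 in mature oligodendrocytes (SD, n = 4). Rps19bp1, which encodes a nucleolar binding partner of the 40S protein Rps19 and is no ribosomal protein, had 93.5 CPM ± 24.6 in neurons and 40.9 ± 10.6 in mature oligodendrocytes (SD, n = 4). Rps3a3 is annotated in GENCODE vM21 as a processed pseudogene, and 46.6% of its transcript-end windows also occur in other genes. It had 23 UMIs in neurons (2.37 CPM ± 0.28, SD, n = 4) and at most 1 in any other class. Rpsa, a 40S protein that also acts as a laminin receptor, had 93 of 9681089 UMIs in neurons (8.78 CPM ± 3.86, SD, n = 4). In mature oligodendrocytes it had 13 of 1565998 UMIs, a similar share. It had none in astrocytes, which allows up to 8.27 CPM, counting error only, and it did not pass the filter on low counts for a test between classes.

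Other genes of translation were read from lists chosen with earlier results of these data known. All 7 translation elongation factors were tested, and 6 were higher and 1 lower in neurons than in astrocytes, with a median of 1.67 beside 0.32 over all genes. For this and the following lists, the shares of all genes called higher and lower were 38.9% and 29.2% against astrocytes, 45.6% and 30.1% against mature oligodendrocytes, 30.8% and 20.3% against precursors, and 33.6% and 17.5% against vascular cells. Eef1a2, the elongation factor 1A isoform of neurons and muscle, led them against astrocytes (6.02, SE 0.61) and against mature oligodendrocytes (5.74, SE 0.33). Against mature oligodendrocytes 5 elongation factors were higher and 2 lower (median 0.73), against precursors 6 and 0 (median 1.59), and against vascular cells 5 and 0 (median 1.60). Of 44 initiation factors 29 were tested, with 17 higher and 1 lower than in astrocytes and 14 higher and 6 lower than in mature oligodendrocytes, where the share called higher was near that of all genes. Eif1a, a factor of start codon scanning, was higher in neurons than in astrocytes (1.95, SE 0.34) and mature oligodendrocytes (2.39, SE 0.21).

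Of 22 ribosome biogenesis factors 12 were tested, and 7 were higher and 1 lower in neurons than in astrocytes, 8 higher and 1 lower than in mature oligodendrocytes. Nop58, a core protein of the box C/D particles that modify ribosomal RNA, was higher in neurons than in mature oligodendrocytes (1.82, SE 0.17), and higher in precursors than in mature oligodendrocytes (1.44, SE 0.37). Of 76 mitochondrial ribosomal proteins 36 were tested. Neurons had 16 higher and none lower against astrocytes (median 0.66), a share called higher near the 38.9% of all genes, and 22 higher and 3 lower against mature oligodendrocytes (median 0.52). Against vascular cells 17 were higher and none lower (median 1.36, beside 0.68 over all genes). The cytosolic members tested there gave 5 higher and 5 lower, a balance that changed with the filter on low counts. Of 9 other messages with a terminal pyrimidine tract only 4 were tested, and among these Nap1l1, a histone chaperone, was higher in neurons than in astrocytes (2.44, SE 0.35), while Pabpc1, the cytoplasmic poly(A)-binding protein, was lower in neurons than in vascular cells (-1.28, SE 0.26). In precursors against mature oligodendrocytes 2 of 29 tested initiation factors were higher and 9 lower, beside 22.7% and 20.5% of all genes. Of the 36 tested mitochondrial ribosomal proteins none was higher and 6 were lower, a share called lower that was not above that of all genes.

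Between GABAergic and glutamatergic neurons no member passed the test. The summed level was 1.46%, 1.16%, 1.05% and 1.05% in GABAergic and 1.46%, 0.95%, 0.98% and 1.13% in glutamatergic neurons of libraries 1 to 4, which overlapped. Of 60 members tested, edgeR called 0 after adjustment, 2 had an unadjusted p under 0.05 and DESeq2 called 0, where 2.76% of all 8862 genes were called (1.62% higher, 1.14% lower). Those 2 were Rplp1 (0.29, SE 0.14) and Rps14 (0.27, SE 0.13), named after their values were seen. The glutamatergic sums came from 11 to 45 cells per library.

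**Figure D4:**
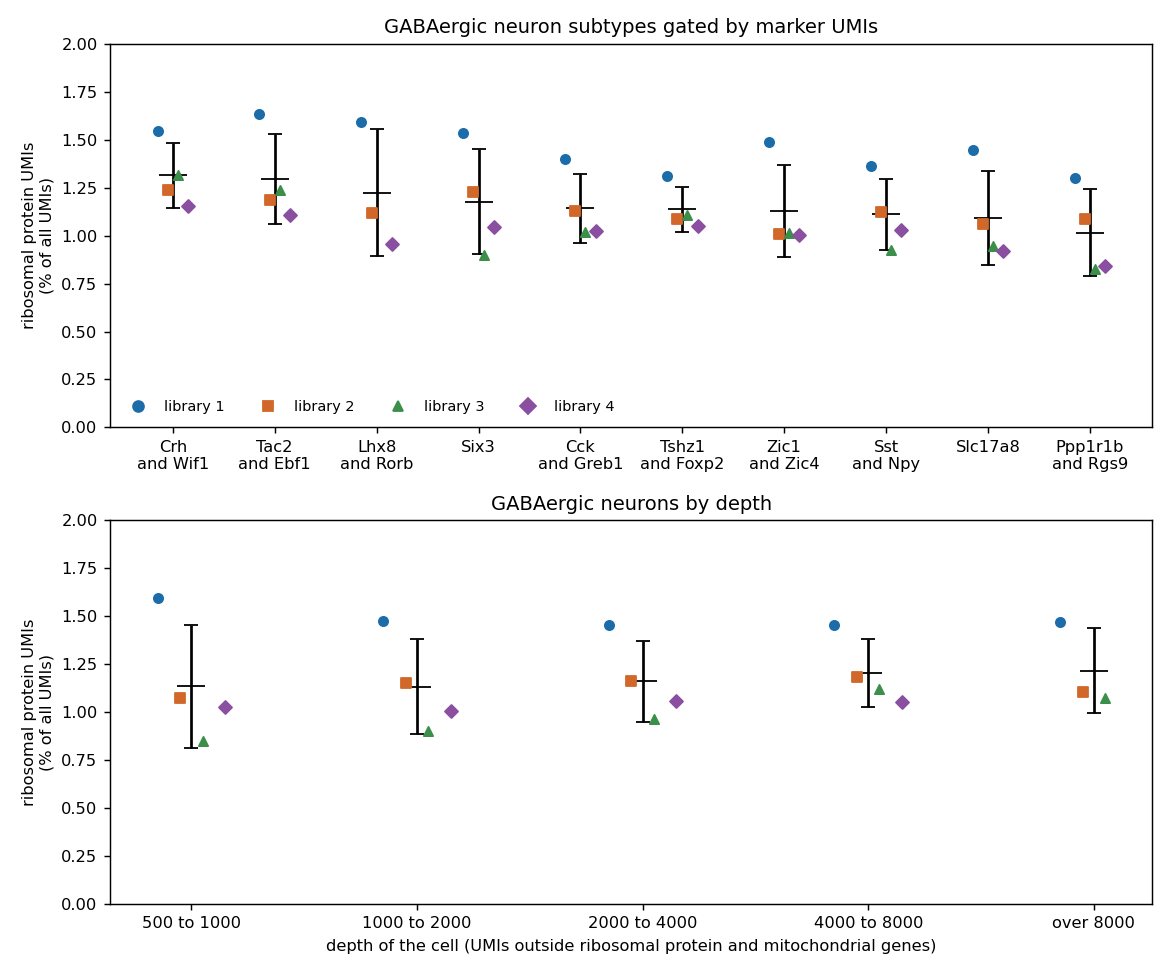
Summed level of the 84 members, as a percentage of all UMIs, in GABAergic subtypes gated by marker UMIs (top, in order of the mean) and in GABAergic neurons by depth (bottom). Points are libraries, and bars and whiskers give the mean and SD. Library 1 is the highest point of each of the 10 subtypes shown, which leave out Prkcd, and of each depth range, and the means of neighbouring subtypes lie within the spread between libraries.

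Subtypes of GABAergic neurons were gated by marker UMIs, and 10 had values from more than 1 library. Among these the mean summed level was highest in Crh and Wif1 neurons and lowest in Ppp1r1b and Rgs9 neurons. It was 1.55%, 1.24%, 1.32% and 1.16% in Crh and Wif1 neurons (1.31% ± 0.17, SD, n = 4) and 1.64%, 1.19%, 1.24% and 1.11% in Tac2 and Ebf1 neurons (1.29% ± 0.23, SD, n = 4). In Ppp1r1b and Rgs9 neurons it was 1.30%, 1.09%, 0.83% and 0.84% (1.01% ± 0.23, SD, n = 4), below both others in each library, with ranges that overlapped. The other 7 subtypes with values from more than 1 library had means of 1.09% to 1.22%, and neighbours in the order differed by less than the SD. The Prkcd subtype had at least 10 cells only in library 2 (12 cells, 1.22%) and was not tested. Its 35 cells pooled over libraries gave 1.38%, beside pooled values of 1.35% in Crh and Wif1 and 1.43% in Tac2 and Ebf1 neurons. Malat1 took 1.48% ± 0.38 of UMIs in Ppp1r1b and Rgs9 neurons and 0.84% ± 0.19 in Crh and Wif1 neurons (SD, n = 4), and its part in the difference was not tested.

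In the test for any difference over 10 subtypes, 6 of 42 tested members were called, among them Rplp1, Rpl14, Rps14, Rps24 and Rpl13a, beside 32.6% of all 4230 genes. None of the 6 was called without the library block or with cells thinned to 1000 UMIs, which left 21 members tested, and 1 was called in cells of 1000 to 4000 UMIs or relative to the group. Counts without 1 library were 1 without library 3, 3 without library 1 or library 4 and 4 without library 2. Of the 420 tests of each subtype against the mean of the others, 9 passed, 5 higher and 4 lower, beside 4.31% and 2.62% over all genes (6.93% in either direction). Without library 3 or without library 4, 5 passed, in cells of 1000 to 4000 UMIs or relative to the group 1 passed, and without the library block or with thinned cells 0 passed.

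The 9 fell in 4 subtypes, and 8 of them are given here. Tac2 and Ebf1 neurons had higher Rplp1 (0.46, SE 0.11, adjusted p = 0.00186), Rps2 (0.50, SE 0.13) and Rpl14 (0.38, SE 0.12), beside 3.81% of all genes called higher there. Rplp1 had 965, 607, 985 and 579 CPM in these neurons and 436, 388 and 297 CPM in the Lhx8 and Rorb neurons of libraries 1, 2 and 4, the only subtype in which it was called lower (-0.63, SE 0.18, adjusted p = 0.0143), beside 3.71% of genes. Rplp1 thus differed between these subtypes in each of the 3 shared libraries. Crh and Wif1 neurons had higher Rps14 (0.32, SE 0.09), beside 4.14% of genes. Ppp1r1b and Rgs9 neurons had lower Rps15a (-0.73, SE 0.19), Rps24 (-0.62, SE 0.17) and Rpl14 (-0.44, SE 0.14), beside 8.01% of genes. Rps24, for example, had 297, 221, 81.2 and 129 CPM in Ppp1r1b and Rgs9 neurons and 384, 308, 393 and 358 CPM in Crh and Wif1 neurons, with no overlap. The Rpl22l1 share of its pair was 55.5% to 77.7% as a mean over libraries in the subtypes tested, above every glial and vascular value.

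Over the depth of GABAergic neurons the mean share of the group moved by less than the spread between libraries. From cells of 500 to 1000 UMIs to cells of over 8000 it went from 1.60% to 1.47% in library 1, from 1.07% to 1.10% in library 2 and from 0.85% to 1.07% in library 3, while library 4 had only 8 cells of over 8000. The direction thus differed between libraries, and the means over libraries were 1.14% ± 0.32, 1.13% ± 0.25, 1.16% ± 0.21 and 1.20% ± 0.18 (SD, n = 4) in ranges divided at 1000, 2000 and 4000 and ending at 8000 UMIs. When GABAergic neurons of each library were split at their median depth, 1 of 62 tested members was called, Rpl22l1, beside 1.13% of 9226 genes called higher and 1.48% called lower (2.61% in either direction). Rpl22l1 had 281, 182, 194 and 178 CPM in the deeper and 255, 145, 128 and 125 CPM in the shallower neurons, higher in 4 of 4 libraries with overlapping groups (0.33, SE 0.10, adjusted p = 0.0445). The call was lost in 12 of 17 alternatives, with adjusted p from 0.0136 to 1.00 over all of them, and no member was called without library 2, 3 or 4.

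The level of single members in neurons spanned a wide range, from 1.64 CPM for Rps27 to 775 CPM for Rpl4, and 10 members held 49.9% of the group's UMIs. Levels per UMI are set by message abundance and by how reads of each gene could be assigned, and the part of each was not measured. Of the 84 members, 29 were under 20 CPM and held 1.75% of the UMIs, 20 lay between 20 and 100 CPM, and 35 were at 100 CPM or more and held 89.8%. For the 29 low members a median of 56.3% of the windows at the transcript end also occurred in another gene, with a median of 8 pseudogenes sharing them. For the 35 high members the median was 39.2%, with 4 pseudogenes. Over the 84 genes, Spearman's rho between level and shared windows was -0.37, a description over genes that share libraries and, in part, sequence.

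Single genes did not follow that relation closely. Rpl4, a 60S protein, shared no window and had 775 CPM, and Rpl36a shared all its windows and had 15.5 CPM. Rpl12, however, shared none and had 6.53 CPM, and Rplp1 shared 66.9% and had 622 CPM. The annotation the authors used is not given in the sources used here, and the part of shared sequence in the low levels was not tested.

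**Figure D5:**
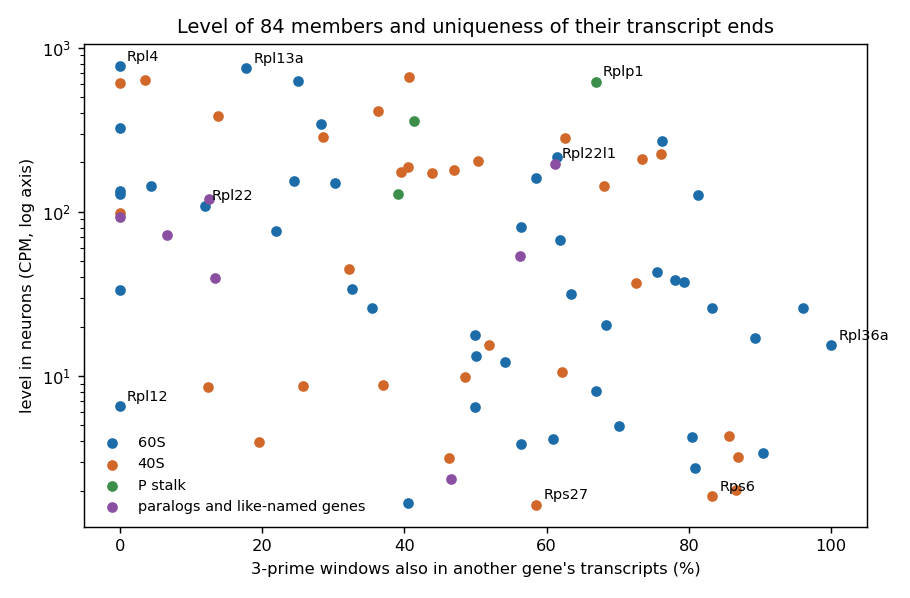
Level in neurons (mean CPM of 4 libraries, log axis) of the 84 members against the share of 50-base windows in the last 300 bases of their transcripts that also occur in another gene's annotated transcript. Points are genes, coloured by role. Rpl4 shares none and lies highest at 775 CPM, and Rpl36a, which shares all its windows, lies at 15.5 CPM.

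Between libraries most of the abundant members were highest in library 1, by differing amounts. Of the 35 members at 100 CPM or more in neurons, 31 were highest in library 1, 2 in library 2, 1 in library 3 and 1 in library 4. The share of all genes highest in library 1 is not given here, so the count is not a trait of the members. Library 1 over the mean of the others ran from 0.98 for Rpl24 to 1.86 for Rps21. The highest library exceeded the lowest by 1.18 to 2.93 times, with a median of 1.54, beside 1.41 for the summed level. Rps21 and Rps26, both 40S proteins, varied most, at 2.93 and 2.22 times, with Rps26 at 416, 229, 295 and 187 CPM. Library 1 also had the most neuron UMIs, 4053145 against 1505036 to 2107436 in the others, and depth, pool and batch cannot be told apart between libraries.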

How the data were processed

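The deposited files are tables of raw UMI counts per gene and cell barcode, 1 per library. Per the submitters' processing notes the tools were bcl2fastq 2.18.0.12, STAR 2.4.2a and Picard 2.2.4, with the builds mm10 and GRCm38 named. The annotation, the strand counted and the choice of barcodes were not given in the sources used here. Libraries were indexed at the 3′ end and read with 50 bases, per the labels' protocols, so a gene's level depends on the end of its transcript.

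Cells with at least 400 genes and at most 10% mitochondrial UMIs were kept, and 58 of 4239 (1.37%) were removed as doublets (Scrublet in scanpy 1.11.5, expected rate 0.05). A cell took the class of the marker list, among 8, with the most UMIs, given at least 3 UMIs from at least 2 markers and 75% of all marker UMIs. GABAergic neurons had UMIs of Gad1, Gad2 or Slc32a1 and none of Slc17a6 or Slc17a7, and glutamatergic neurons the reverse. The 11 subtypes were gated by at least 2 UMIs of their markers. Cells were not replicates: counts were summed per class and library with at least 10 cells. Sums were tested by the quasi-likelihood F-test of edgeR 4.0.16 (R 4.3.3), after filterByExpr and TMM scaling, with p adjusted by Benjamini-Hochberg over all genes. Library entered as a block, since the sums compared within a library derive from 1 pool of 6 mice. Subtype tests were adjusted over all genes and subtypes together. Each standard error is the log2 difference divided by the root of its F statistic. Per-library values are CPM of UMIs without TMM. The script was tested on simulated counts. Named members were the 5 largest called rises and falls per comparison, changed the same way in every library by TMM-scaled CPM. The P stalk, Rpsa and the paralogs were named too, and across subtypes the 5 of smallest p. Others named were chosen after their values were seen, and 2 members are not reported singly here. The members, lists and tests were chosen with earlier results of these data known. Positions and transcript ends are from GENCODE vM21 on GRCm38, in which all 84 members were found, Rps4y2 through its RefSeq synonym. Python 3.11.15, numpy 2.4.6, pandas 2.3.3 and matplotlib 3.10.9 were used, with DESeq2 1.42.0 as an alternative test.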

Additional observations from a re-analysis of the deposited data

Results flagged for a closer look

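The summed level of the members in the Zic1 and Zic4 subtype was 1.49% of UMIs in library 1, apart from 1.00% to 1.01% in libraries 2 to 4. Library 1 was also the highest in neurons as a whole, at 1.47% beside 1.04% to 1.15% in libraries 2 to 4. The difference of Rpl27a between neurons and oligodendrocyte precursors, as log2(CPM + 1), was 1.16 in library 1 and 6.53 to 7.21 in the others, in which no precursor had a UMI of the gene. The difference of Rps15 between oligodendrocyte precursors and mature oligodendrocytes was -7.39 in library 2, where precursors had none of its UMIs, and -1.14 to -0.31 elsewhere. Each of these is 1 library far from the other 3, by Dixon's test at its 95% critical value. Among the 55 sets of 4 libraries searched, chance gives about 2.75 such values, and 3 were found.

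Outside the members, the 23 names ending in -ps, which mark pseudogenes of these genes, held 1203 UMIs in all, 161 to 554 per library. There is no control sample to set this against.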

How the results depend on the processing

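Of 36 named differences under all alternatives (656 values), 574 kept direction and call, 82 kept direction but lost the call and none changed sign. Under DESeq2 size factors and under total UMIs alone, no called member changed sign in the 5 comparisons of classes. The median of all genes moved with scaling: against astrocytes it was 0.32, then 0.15 with DESeq2 size factors and 0.47 with total UMIs; against mature oligodendrocytes 0.32, 0.20 and 0.54; against precursors 0.32, 0.07 and -0.01; against vascular cells 0.68, 0.52 and 0.37.

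Counts of called members that moved by over 1.5 times were as follows, and the cause was not tested except where fewer cells or genes entered. Neurons against precursors gave 22 with a 5% mitochondrial limit and 19 with thinned cells. Neurons against vascular cells gave 21 with no filter on low counts (20 higher, 1 lower), 3 with at least 800 genes per cell, 6 at 90% gate purity and 3 with thinned cells. Precursors against mature oligodendrocytes gave 8 with total UMIs alone. Relative to the members' total, which removes a shared shift by construction, the counts were 7, 16 and 6 against astrocytes, mature oligodendrocytes and precursors, 3 between precursors and mature oligodendrocytes, 0 by depth, 1 for any subtype difference and 1 for single subtypes. The depth comparison gave 2 with at least 200 genes per cell, and 0 with DESeq2 size factors, total UMIs alone, the DESeq2 test, at least 800 genes, a 5% mitochondrial limit, at least 6 marker UMIs and mitochondrial genes left out. Any subtype difference gave 10 with no filter, 1 in cells of 1000 to 4000 UMIs and 0 with thinned cells. Single subtypes gave 14 with total UMIs alone, with no filter and with at least 200 genes, 1 in cells of 1000 to 4000 UMIs and 0 with thinned cells. The summed level of astrocytes was 0.49% with at least 800 genes per cell.

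Without the replicate block, which pairs sums of the same pool, 6 members were called against vascular cells, 0 by depth, 0 for any subtype difference and 0 for single subtypes, and no other count moved by over 1.5 times. Leaving out 1 library at a time gave 16 to 28 against mature oligodendrocytes, 2 to 9 against vascular cells, 0 to 1 by depth, 1 to 4 for any subtype difference and 5 to 9 for single subtypes. Neurons against vascular cells had too few sums to be fitted with a 5% mitochondrial limit or in cells of 1000 to 4000 UMIs, and the transmitter comparison could not be fitted in the latter. Sums of 9718 to 110560 UMIs in astrocytes, precursors and vascular cells limit what can be seen of members under about 100 CPM.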
